A study of Mus musculus with 2 samples.

Results

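The BCL2 family controls whether a cell permeabilises its own mitochondria and dies by apoptosis. Its members described here are the 10 genes Bcl2, Bcl2l1, Mcl1, Bax, Bak1, Bok, Bid, Bcl2l11, Bbc3 and Bmf, taken by symbol from a table of 46095 mouse genes and gene models, and all 10 were found. Survival proteins (BCL2, BCL-XL encoded by Bcl2l1, and MCL1) hold the pore-forming effectors (BAX, BAK encoded by Bak1, and BOK) in check. BH3-only proteins (BID, BIM encoded by Bcl2l11, PUMA encoded by Bbc3, and BMF) relay stress by binding the survival proteins or by activating the effectors. In myeloid progenitors and acute myeloid leukaemia the family is known above all for dependence on MCL1 and BCL2, and drugs that occupy the BH3-binding groove of BCL2 are used in this disease.

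RNA was sequenced from mouse acute myeloid leukaemia cells that the labels call leukaemia-initiating cells, sorted from bone marrow for the surface proteins Mac1 and KIT. The strain was C57BL/6 and the stated age 8 weeks in both groups. One group is labelled wild type (WT; P2X1-Scr in the protocol), the other P2X1 knockout (P2X1-KO; P2X1-KD in the protocol), and the labels thus mix knockout and knockdown wording for P2X1, the ATP-gated channel encoded by P2rx1. The leukaemia driver, the number of mice behind each library and any pooling are not stated in the labels. By its labels, the comparison asks how transcripts differ between leukaemia cells with the receptor and cells in which it was knocked out or knocked down.

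Each group was 1 library, so no difference has a replicate check and no p-value was computed. The libraries held 14658620 (WT) and 9447894 (P2X1-KO) counts. Levels are in CPM, counts scaled to 1000000 per library after TMM scaling, and intervals are exact 95% intervals that cover counting error only. P2rx1 had 27 counts (1.73 CPM) under the label WT and 45 (5.07 CPM) under the label P2X1-KO, which goes against the label, so all directions below compare the library labelled P2X1-KO with the library labelled WT. If labels or columns were exchanged, every direction would turn, and the files do not settle this. Whether a deleted exon was read cannot be seen from gene-level counts. The sorting markers Itgam (307 and 504 CPM) and Kit (13.3 and 19.9 CPM) and the leukocyte gene Ptprc (218 and 267 CPM) were present in both libraries.

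What joins these proteins is the BH3 segment, a helix that one member inserts into the groove of another. A search of the coding sequence of 1 principal transcript per gene (GENCODE M21, mm10) for the BH3 core, a leucine followed 4 residues later by glycine or alanine and then aspartate, found exactly 1 match in each of the 10 genes. The 27 bases around each match are shown because they are the feature shared by survival, effector and BH3-only members alike. Capitals mark the leucine codon and the codons of the small residue and the aspartate.

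Bcl2: accCTCcgccgggctGGGGATgacttc

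Bcl2l1: gcgCTGagagaggcaGGCGATgagttt

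Mcl1: accCTGcggcgcgtgGGCGACggcgtg

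Bax: tgtCTCcggcgaattGGAGATgaactg

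Bak1: cagCTTgctctcatcGGAGATgatatt

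Bok: gtgCTGctgcgcttgGGAGATgagctg

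Bid: catCTCgcccaaataGGCGATgagatg

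Bcl2l11: gagCTGcggcggatcGGAGACgagttc

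Bbc3: cagCTGcggcggatgGCGGACgacctc

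Bmf: aagCTTcagtgtattGCAGACcagttc

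The small residue was glycine in every member except Bbc3 and Bmf, which carry alanine. The Bcl2 stretch lies at chr1:106712578-106712604 on the minus strand and that of Mcl1 at chr3:95659433-95659459 on the plus strand. In Bok the stretch is interrupted by an intron, so it spans chr1:93686654-93689167 on the plus strand, and in the other 9 genes it lies within 1 exon.

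Of the 10 members, 1 (Bcl2) was higher by 2-fold or more in the library labelled P2X1-KO and 1 (Bok) lower by as much, while 8 lay within 2-fold. Among all 13382 genes averaging 1 CPM or more across the libraries, 15.5% were higher and 14.0% lower by 2-fold or more, so the share of members past 2-fold in each direction, 10%, was not above the background. Each of these calls also had its whole interval beyond 2-fold, as did 10.2% of all genes on the higher side and 7.75% on the lower side. The median log2 difference of the family, computed as log2(CPM + 0.5) in P2X1-KO minus WT, was 0.04, beside -0.06 for all genes, and it was negative (-0.13) with total-count scaling, where the median of all genes was -0.23. Of the calls over all genes, 52.6% were on the higher side with TMM, 40.9% with total counts and 39.9% with total counts that leave out the 20 most abundant genes.

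**Figure D1:**
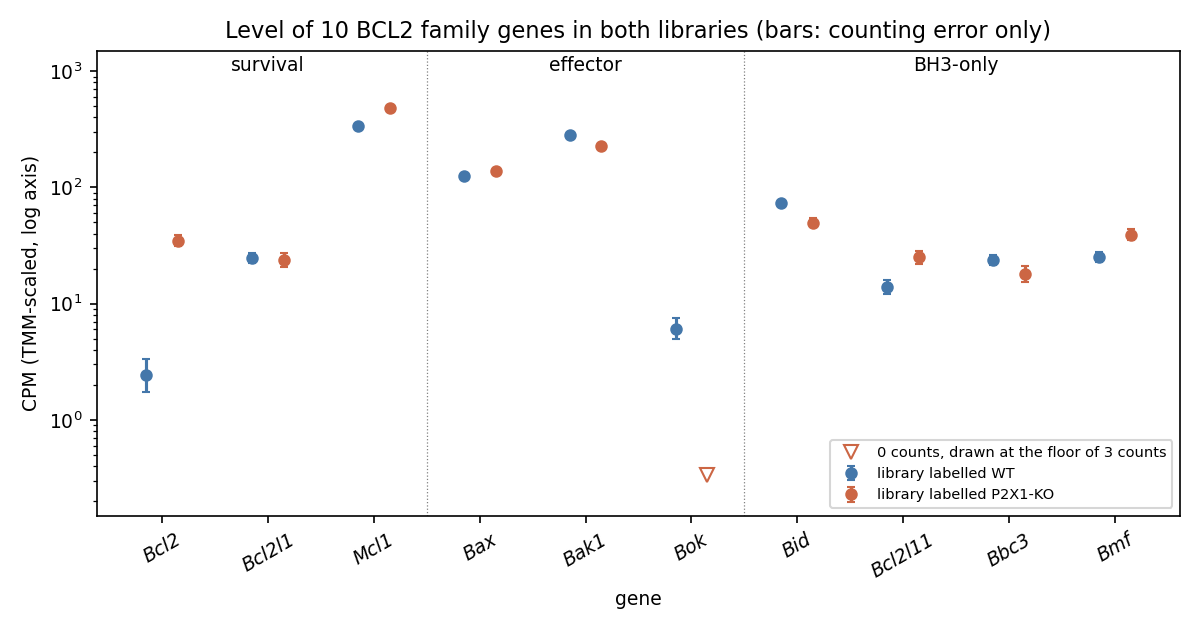
CPM of each member (log axis) in the library labelled WT (blue) and the library labelled P2X1-KO (orange); bars are exact 95% counting intervals and the open triangle marks 0 counts, drawn at the floor of 3 counts. Bcl2 sits at 2.44 and 34.9 CPM and Bok at 6.09 CPM and 0, whereas the points of each of the other 8 genes lie within 2-fold.

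Among the survival genes, the library labelled P2X1-KO had more Bcl2 (14.3-fold) and more Mcl1 (1.43-fold), whereas Bcl2l1 was level. Bcl2, whose protein sits on mitochondrial and endoplasmic reticulum membranes, gave 38 reads (95% interval 26.9 to 52.2) in the library labelled WT, against 310 (276 to 347) in the one labelled P2X1-KO. On the CPM scale this was 2.44 against 34.9, a ratio of 14.3 (10.2 to 20.6). The log2 difference of Bcl2 was 3.59, larger than that of 99.0% of the genes measured, and it stayed between 3.06 and 4.01 in every scaling, filter, pseudocount and correction tried. Bcl2 shares 558 exon bases with D630008O14Rik, an antisense gene, so without a stated strand setting some of its reads could belong to that gene, which was not analysed here.

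Mcl1, a short-lived survival protein that myeloid cells need, was the most abundant of the 3 survival transcripts in both libraries. It had 5273 and 4296 counts, which scale to 338 CPM for the label WT and 484 CPM for the label P2X1-KO, a ratio of 1.43 (1.37 to 1.49). The difference of Mcl1 exceeds counting error, with a log2 value of 0.52 that ranged from 0.32 to 0.67 over the settings, and it is within 2-fold. Bcl2l1, encoding BCL-XL, the survival protein of erythroid cells and platelets, had 383 and 211 counts, or 24.6 and 23.8 CPM. Its ratio of 0.967 (0.814 to 1.15) has an interval that includes no change, and its sign turned with upper-quartile scaling and with the correction for exon length and GC content.

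The upstream sequence of Bcl2 and Bok is shown because these are the members past 2-fold. It covers the 250 bases before the RefSeq start site (GRCm38.p6, the mm10 assembly), with capitals for the GC box GGGCGG or its complement CCGCCC. The CCAAT box (CCAAT or ATTGG) was also searched on both strands, and neither sequence holds it.

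Bcl2 (chr1:106714291-106714540, minus strand): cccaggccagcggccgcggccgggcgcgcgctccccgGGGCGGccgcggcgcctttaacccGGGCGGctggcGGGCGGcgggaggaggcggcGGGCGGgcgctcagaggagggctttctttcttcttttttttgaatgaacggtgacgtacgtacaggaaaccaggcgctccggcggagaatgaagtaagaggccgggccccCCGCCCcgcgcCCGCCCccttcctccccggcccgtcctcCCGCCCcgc

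Bok (chr1:93685325-93685574, plus strand): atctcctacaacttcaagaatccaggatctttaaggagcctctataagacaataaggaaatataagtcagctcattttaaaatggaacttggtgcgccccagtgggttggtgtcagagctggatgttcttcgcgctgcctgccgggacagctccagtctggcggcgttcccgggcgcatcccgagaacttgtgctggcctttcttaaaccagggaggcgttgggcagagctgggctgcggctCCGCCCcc

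The Bcl2 sequence holds 7 GC boxes and 36 CpG dinucleotides at 74.8% GC. The Bok sequence holds 1 GC box and 12 CpG dinucleotides at 55.2% GC. Over 32851 promoters of the same length, 32.7% hold a GC box and 33.8% a CCAAT box, and the median is 6 CpG dinucleotides at 52.4% GC. At the other members GC boxes numbered 1 for Mcl1, 3 and 2 for the 2 listed starts of Bcl2l11 and 0 for Bmf, which were higher. They numbered 0 for Bak1, 3 for Bid and 5, 1 and 7 for the 3 listed starts of Bbc3, which were lower. Bax had 2 and Bcl2l1 had 0. A link between these counts and direction was not tested. A match describes letters in this window and not a bound site.

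Among the effectors, Bok counts were found in the library labelled WT only, while Bax and Bak1 stayed within 2-fold. Bok, the effector that is not held by most survival proteins and resides mainly on the endoplasmic reticulum, gave 95 reads (76.9 to 116) in the library labelled WT, against 0 in the one labelled P2X1-KO. That is 6.09 CPM against a floor of 3 counts, or 0.338 CPM, which makes Bok 18.0-fold lower against the floor. The exact interval allows a difference as small as 14.4-fold. Of all genes averaging 1 CPM or more, 1.11% (148 genes) likewise had 0 counts in the library labelled P2X1-KO. Bok passed that level only through the library in which it was found, and at a mean of 3.05 CPM it drops out when 5 CPM is required.

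Bak1, a constitutive effector of the outer mitochondrial membrane, had 4420 and 1999 counts, which scale to 283 CPM for the label WT and 225 CPM for the label P2X1-KO. It was 1.26-fold lower (1.19 to 1.33), and lower under each scaling and after the correction for exon length and GC content. Ggnbp1 lies opposite Bak1 and shares exon bases with it. Ggnbp1 had 1174 and 169 counts, and without a stated strand setting the reads of both cannot be separated with certainty. Bax, a cytosolic effector that moves to mitochondria when activated, had 1971 and 1234 counts, or 126 and 139 CPM, a ratio of 1.10 (1.02 to 1.18). Bax shares 192 exon bases with Gm45808 on the same strand. The log2 difference of Bax, 0.14, turned to -0.04 with total counts and to -0.06 with the correction for exon length and GC content.

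BH3-only genes went in both directions and all 4 lay within 2-fold. Bcl2l11, encoding BIM, which binds every survival protein, had 218 and 222 counts, which scale to 14.0 CPM for the label WT and 25.0 CPM for the label P2X1-KO. Its ratio was 1.79 (1.48 to 2.16), and after the correction for exon length and GC content its log2 difference was 1.19 in place of 0.82, past 2-fold. Bmf, encoding a BH3-only protein linked to the cytoskeleton, had 393 and 348 counts, or 25.2 and 39.2 CPM, a ratio of 1.55 (1.34 to 1.80).

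Bid and Bbc3 were lower. Bid, whose protein is cut by caspase-8 and so links death receptors to mitochondria, had 1135 and 443 counts, which scale to 72.8 CPM for the label WT and 49.9 CPM for the label P2X1-KO. The difference was 1.46-fold (1.31 to 1.63). Bid shares 628 exon bases with Bcl2l13 on the opposite strand, which had 181 and 89 counts. Bbc3, encoding the p53-induced protein PUMA, had 371 and 159 counts, or 23.8 and 17.9 CPM, and was 1.33-fold lower (1.10 to 1.61). Both were lower, and Bcl2l11 and Bmf higher, under each scaling and after the length and GC correction, the settings that could turn a sign.

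**Figure D2:**
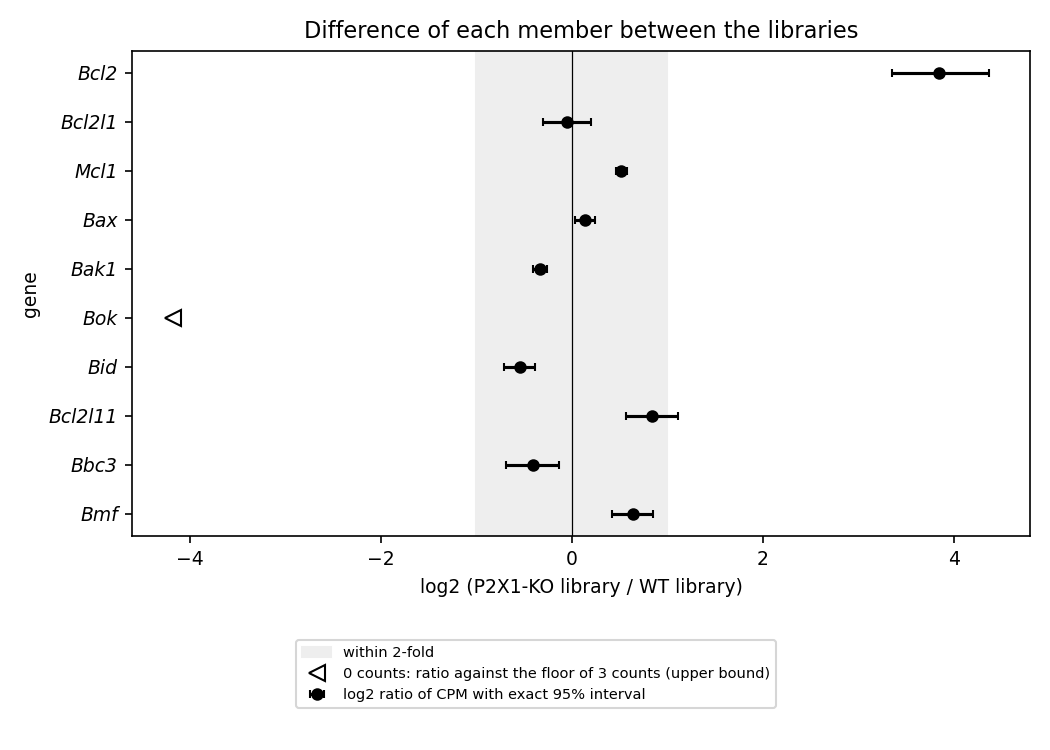
Log2 ratio of CPM, library labelled P2X1-KO over library labelled WT, for each member (points) with its exact 95% counting interval (bars). Grey marks differences within 2-fold. The open triangle is the ratio of Bok, which had 0 counts, against the floor of 3 counts, and the exact interval of Bok reaches up to a ratio of 0.0695. Bcl2 (ratio 14.3) and Bok lie far outside the grey band, Bcl2l11 reaches its edge, and Bcl2l1 spans no change.

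Levels of different genes were compared per kilobase of exon, using the merged exons of each gene. In the library labelled WT the order was Bak1 (118 CPM per kilobase), Mcl1 (98.9), Bax (80.2), Bid (20.5), Bbc3 (11.2), Bcl2l1 (5.36), Bmf (4.80), Bok (3.31), Bcl2l11 (1.74) and Bcl2 (0.266). Only Bcl2l1 and Bmf were neighbours with overlapping counting intervals. Bcl2 was thus the lowest of the 10 there. In the library labelled P2X1-KO Mcl1 came first (141.5 CPM per kilobase), before Bak1 (93.5), Bax (88.1), Bid (14.0), Bbc3 (8.43), Bmf (7.46), Bcl2l1 (5.18), Bcl2 (3.81), Bcl2l11 (3.11) and Bok (0). The intervals of Bak1 and Bax, of Bbc3 and Bmf, and of Bcl2 and Bcl2l11 overlapped. The per-kilobase value of Bcl2 rests on 9157 exon bases, and cells that use a shorter transcript would have a higher value.

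A ratio of 2 genes within a library does not depend on how the libraries are scaled. Per kilobase, Bcl2 stood at 0.269 per 100 of Mcl1 under the label WT and at 2.69 per 100 under the label P2X1-KO, a 10.01-fold shift (7.11 to 14.5). Against Bak1 the shift of Bcl2 was 18.0-fold (12.8 to 26.1) and against Bax 13.0-fold (9.20 to 18.9). Bcl2l11, whose product is sequestered by BCL2, stood at 654 per 100 of Bcl2 in the library labelled WT. In the library labelled P2X1-KO it stood at 81.7 per 100, 8.01-fold lower (5.39 to 12.1), although Bcl2l11 itself was 1.79-fold higher. The shifts that involve Bcl2 all rest on its 38 and 310 counts and are not separate results. Mcl1 stood at 84.0 per 100 of Bak1 and at 151 per 100, a shift of 1.80-fold (1.68 to 1.93). Among BH3-only genes, Bcl2l11 shifted 2.61-fold against Bid (2.09 to 3.26) and Bmf 2.07-fold against Bbc3 (1.62 to 2.63).

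As a share of the reads of the 3 survival genes, Bcl2 took 0.667% (exact 95% interval 0.473 to 0.915) under the label WT and 6.44% (5.76 to 7.17) under the label P2X1-KO. Mcl1 took 92.6% (91.9 to 93.3) and 89.2% (88.3 to 90.0). Counted per kilobase, Bcl2 took 0.255% and 2.53%, and Mcl1 94.6% and 94.0%, so Mcl1 remained the main survival transcript of both libraries. Bak1 took 68.1% (67.0 to 69.3) and 61.8% (60.1 to 63.5) of the effector reads, or 58.5% and 51.5% per kilobase. Bid took 53.6% (51.5 to 55.8) and 37.8% (35.0 to 40.6) of the BH3-only reads, or 53.6% and 42.5% per kilobase.

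**Figure D3:**
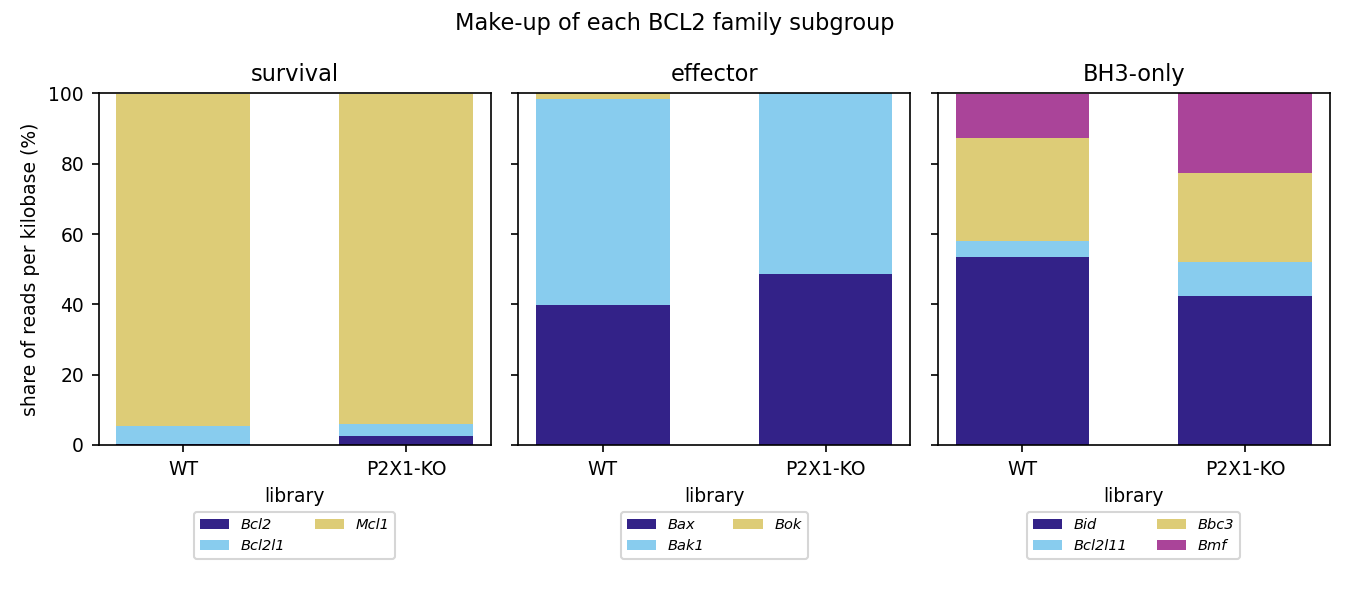
Share of each member in the reads per kilobase of exon of its subgroup (percent, stacked to 100), for the library labelled WT and the library labelled P2X1-KO. Mcl1 fills 94.6% and 94.0% of the survival bar, Bcl2 widens from 0.255% to 2.53%, and Bid narrows from 53.6% to 42.5% of the BH3-only bar.

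Summed over the 3 survival genes, reads were 1.48-fold more frequent in the library labelled P2X1-KO (1.43 to 1.54), most of them from Mcl1, and 1.31-fold higher with total counts. Those of the effectors were 1.14-fold lower (1.10 to 1.19). The BH3-only sum was nearly level at a ratio of 0.972 (0.904 to 1.04), and it was 0.859 with total counts and 1.03 with upper-quartile scaling.

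**Figure D4:**
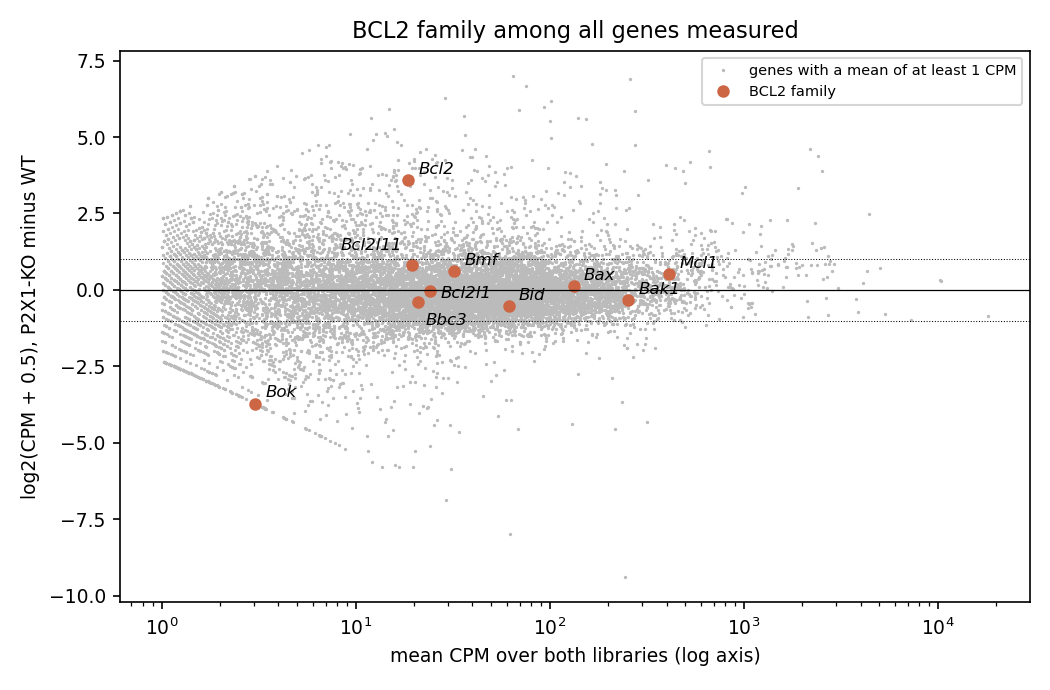
Log2 difference, log2(CPM + 0.5) in P2X1-KO minus WT, against the mean CPM of each gene (log axis) for the 13382 genes averaging 1 CPM or more (grey) and the 10 members (orange); dotted lines mark 2-fold. Bcl2 lies above 99.0% of the genes, Bok on the line formed by genes that had no reads in the library labelled P2X1-KO, and the other 8 members inside the dotted lines.

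For each gene list below, the background with TMM is the 15.5% of all genes higher and the 14.0% lower by 2-fold or more. With total counts these shares were 12.7% and 18.4%, and the median of all genes was -0.23. After the correction for exon length and GC content they were 14.0% and 11.7%, with a median of 0. Further relatives of the family came from a list of 20, of which 14 averaged 1 CPM or more. Of these, 1 was higher by 2-fold or more and 2 lower by as much. Their median log2 difference was -0.14, beside -0.06 for all genes. With total counts 1 was higher and 3 lower, and after the length and GC correction 0 and 1, which left Bcl2l14 as the call. Pmaip1, encoding NOXA, a BH3-only protein that binds MCL1, had 2577 counts (165 CPM) under the label WT and 652 (73.4 CPM) under the label P2X1-KO, 2.25-fold lower (2.07 to 2.46), or 1.97-fold lower and within 2-fold after that correction. Pmaip1 and the transcript of its partner MCL1 thus differed in opposite directions. Bcl2l14 had 130 and 25 counts, 2.96-fold lower (1.92 to 4.75). Bcl2l2, encoding the survival protein BCL-W, had 34.2 and 18.1 CPM, 1.89-fold lower (1.58 to 2.27), or 2.14-fold with total counts.

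The Bcl2a1 genes encode the survival protein A1 of haematopoietic cells and are near-identical copies, so reads may have been exchanged among them. Bcl2a1a had 209 and 79 counts, Bcl2a1b 111 and 112, and Bcl2a1d 35 and 46, with ratios of 0.663, 1.77 and 2.31, the last being 1.75 after the correction. These copies thus differed in direction, and each value is uncertain. Bad, a BH3-only gene controlled by phosphorylation, was level at 49.3 and 49.8 CPM, with its sign depending on scaling. Bnip3 and Bnip3l, which encode receptors for the removal of mitochondria, were at ratios of 1.997 (1.72 to 2.32), just under the 2-fold line, and 1.45 (1.35 to 1.56). Bnip1 was 1.57-fold lower (1.36 to 1.82) and Bnip2 at a ratio of 1.16 (1.07 to 1.25). Bcl2l12, Bcl2l13 and the autophagy gene Becn1 had ratios of 0.938, 0.863 and 0.875, and the last 2 changed sign after the correction for exon length and GC content.

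Downstream of the mitochondrial step, 2 of 18 measured apoptosome and caspase genes were higher by 2-fold or more and 1 lower by as much (median log2 difference -0.04, and 0.19 after the length and GC correction). With total counts 1 was higher and 2 lower, and Pycard was within 2-fold at a ratio of 1.82. The 2 higher genes, Nlrp3 (ratio 4.96, 3.84 to 6.48) and Pycard (2.06, 1.86 to 2.28), encode inflammasome parts rather than apoptosome parts. Dffb, encoding the nuclease that cuts DNA in apoptosis, was 2.69-fold lower (2.22 to 3.28). Of 13 inhibitor of apoptosis genes and their antagonists, 1 was higher by 2-fold or more, Naip1 at a ratio of 2.03 (1.498 to 2.75), and 0 lower (median 0.20, or 0.50 after the length and GC correction and 0.02 with total counts). With total counts 0 were higher and 2 lower, with Naip1 at 1.79, and after the correction 3 were higher and 0 lower. Naip genes are close copies, so that value is uncertain.

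In the list of death receptors and related genes, 3 of 14 measured genes passed 2-fold upward and 1 downward, or 21.4% and 7.14%. Over all genes the shares were 15.5% and 14.0%. The median of the list was 0.26, or 0.08 with total counts and 0.02 with total counts without the 20 most abundant genes. The median of all genes was -0.06, -0.23 and -0.25 in the same settings. With upper-quartile scaling the list was at 0.34 and all genes at 0.02. After the length and GC correction they were at 0.43 and 0. Mlkl, encoding the executioner of necroptosis, had a ratio of 3.10 (2.79 to 3.46), Tnfrsf1b one of 3.07 (2.84 to 3.32) and Tnfrsf21 one of 2.69 (2.38 to 3.04). Tnfrsf10b, the mouse TRAIL receptor gene, had 80 and 9 counts and was 5.06-fold lower (2.54 to 11.5).

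Bax, Bbc3 and Pmaip1 are textbook targets of p53, and a list of 30 p53 pathway genes, Trp53 included, was split. Of 27 measured, 2 passed 2-fold upward and 4 downward (median -0.18). With total counts 1 was higher and 7 lower, a setting in which the share of all genes at least 2-fold apart was 12.7% on the higher side and 18.4% on the lower. After the length and GC correction 3 were higher and 3 lower. Cdkn1a (ratio 2.13, 1.92 to 2.37) and Ddb2 (2.32, 1.91 to 2.81) were the higher ones, and Cdkn1a was within 2-fold (1.88) with total counts. Zmat3 was 3.51-fold lower (2.62 to 4.79), and Tnfrsf10b and Pmaip1 belong to this list too.

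Regulators of transcription and stress had 3 of 24 measured genes past 2-fold upward and 1 downward. Their median was 0.05, or -0.12 with total counts, beside -0.06 and -0.23 for all genes. Myc had a ratio of 6.08, Cebpb one of 3.04 and Chac1, with 17 and 23 counts, one of 2.37 (1.21 to 4.74), or 1.96 after the length and GC correction. Atf5 was 2.25-fold lower (1.94 to 2.62). Of 19 measured turnover and kinase genes 1 passed 2-fold upward and 1 downward (median -0.35). Both act on MCL1: Trim17 encodes a ubiquitin ligase reported for MCL1 and had a ratio of 4.80 (3.51 to 6.64), and Huwe1, encoding the ligase MULE, was 2.15-fold lower (2.03 to 2.29). After the correction for exon length and GC content 0 genes of the list passed 2-fold downward, with Huwe1 1.55-fold lower.

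Among 26 genes of mitochondrial membrane and endoplasmic reticulum partners, 1 passed 2-fold upward and 5 downward (median -0.30), and after the length and GC correction 0 and 2. With total counts 0 and 6 did so, in a setting where 12.7% of all genes were higher and 18.4% lower. Fis1, a mitochondrial fission gene, had a ratio of 2.12 (2.01 to 2.23), or 1.87 with total counts and 1.71 after the correction. Atp2a2, Itpr3 and Hk2 were 2.69-fold, 2.31-fold and 2.27-fold lower, and Itpr3 was within 2-fold (1.91-fold) after the correction. ITPR3, the calcium release channel, is bound by BCL2 at the endoplasmic reticulum.

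The genes next to Bcl2 and Bok did not repeat their differences in size. Bcl2 lies at chr1:106538178-106714274 on the minus strand. Of the 2 nearest listed protein-coding genes on each side, Phlpp1, Zcchc2 and Vps4b lay within 2-fold at ratios of 0.895, 0.746 and 0.842. Kdsr, 6184 bases away, was 2.04-fold lower (1.64 to 2.56). These ratios were all below 1, opposite to Bcl2, though the interval of Phlpp1 (0.630 to 1.26) includes no change. Bok lies at chr1:93685660-93695764 on the plus strand. Its neighbour Thap4, 6170 bases away, was 2.02-fold lower (1.74 to 2.36) and Farp2 2.88-fold lower (1.70 to 5.17). Stk25 and Atg4b lay within 2-fold at ratios of 0.845 and 0.938, and the interval of Atg4b (0.836 to 1.05) includes no change. The ratios around Bok were thus all below 1, its own side, but so were those around Bcl2. Over all genes, 14.0% were lower by 2-fold or more.

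Markers of other cells also differed between the libraries, and in bulk RNA fewer cells of a type and less RNA per cell cannot be told apart. Lymphocytes are a known source of Bcl2. Of 8 B cell markers 2 reached 1 CPM, with summed levels of 16.6 CPM for the label WT and 49.6 CPM for the label P2X1-KO that come mostly from Cd79b, and Ms4a1, Pax5, Ebf1 and Vpreb3 were at 0 in both. T and NK cell markers summed to 2.24 and 2.03 CPM, with Cd3g, Cd4, Cd8a, Ncr1 and Klrb1c at 0 in both. These near-equal sums cover differences in both directions at low counts. Lck, the 1 marker that reached 1 CPM, had 32 and 2 counts and Cd3d 2 and 0, whereas Cd3e had 0 and 8 and Il7r 1 and 8. Plasma cell markers summed to 166 and 217 CPM, mostly Xbp1, with Tnfrsf17 at 0 in both.

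Most measured markers of maturing myeloid cells and granulocytes differed upward under the label P2X1-KO, the direction of Bcl2 and not of Bok. Each group was 1 library, so a shared direction is a single contrast and does not tie these markers to either gene. Of all genes averaging 1 CPM or more, 15.5% also differed upward by 2-fold or more. All 7 measured of 8 monocyte and macrophage markers passed 2-fold upward in the library labelled P2X1-KO (266 and 4904 CPM summed). Of 9 mature neutrophil markers 8 did so (3214 and 12739 CPM), while Ly6g was lower at a ratio of 0.580 (109 and 36 counts). Of 9 eosinophil, mast cell and basophil markers 5 were measured and 3 passed 2-fold upward (60.8 and 259 CPM), with Fcer1a at 0 in both. Mcpt8 was lower at a ratio of 0.676, within 2-fold. Of 9 stromal and endothelial markers 5 were measured and 4 passed 2-fold upward (108 and 293 CPM). Pdgfrb, at 93.1 and 47.1 CPM, was lower at a ratio of 0.505 and made up most of the sum under the label WT. Kdr was at 0 in both. Col1a2 and Col3a1 were at 0 in the library labelled WT, and Cxcl12 and Lepr at 0 in the one labelled P2X1-KO. Of 6 dendritic cell markers 2 were measured, Itgax at a ratio of 2.93 and Flt3 at 0.659, with summed levels of 77.8 and 66.1 CPM. Erythroid markers summed to 0.962 and 2.14 CPM and megakaryocyte markers to 2.89 and 5.29 CPM. The part of these cells in the differences of Bcl2, Bok and the other members was not tested.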

How the data were processed

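Raw counts of reads, listed by gene symbol, were deposited by the authors for each library. Alignment with HISAT2 2.0.4 and the mm10 build are named, per the submitters' processing notes. How reads were counted, and with which annotation and strand setting, is not stated there. The table held 27 entries turned into calendar dates, which stayed in the totals unnamed.

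CPM was computed from these deposited counts with TMM in edgeR 4.0.16 (R 4.3.3), giving effective sizes of 15591519 (WT) and 8882591 (P2X1-KO). Ratios carry Clopper-Pearson 95% intervals of the counts given their sum, and counts carry Poisson intervals. A count of 0 was set against 3 counts. The ratio and interval code was tested on simulated data. GENCODE M21 gave exon lengths and GC content, matched for 94.7% of genes averaging 1 CPM or more. The correction subtracted medians within 20 bins of length and then of GC. Median-of-ratios factors came from DESeq2 1.42.0, without a test.

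All 10 members are named, all measured further relatives, and from other lists up to 3 genes past 2-fold in each direction by the interval bound nearest no change. Members and lists were chosen with earlier results of these data known. Genes next to Bcl2 and Bok, and ratios between members, were chosen after values were seen.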

Additional observations from a re-analysis of the deposited data

How the results depend on the processing

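Over 9 alternatives of scaling, low-value filter, pseudocount and the correction for exon length and GC content, 73 of 89 member values stayed within the counting interval of the reported value, 16 moved beyond it, and 0 of the members past 2-fold changed sign. A filter leaves the value of a measured gene as it is, so those values count among the 73 by construction. A pseudocount cannot turn a sign, and the scalings moved values by far less than the differences of Bcl2 and Bok. The family median log2 difference, 0.04, became -0.13 with total counts, -0.15 with total counts without the 20 most abundant genes and -0.018 with the length and GC correction. The median of all genes, -0.06, became -0.23, -0.25 and 0 in these settings. Members at least 2-fold higher numbered 2 with that correction, which added Bcl2l11, and 14.0% of all genes were then higher and 11.7% lower. Members at least 2-fold lower numbered 0 at a mean of at least 5 CPM, since Bok was then not measured. At that level 12.1% of all genes were higher and 10.6% lower. Requiring the whole interval beyond 2-fold left 1 in each direction. Per kilobase, the shares were 0.255% and 2.53% for Bcl2, 94.6% and 94.0% for Mcl1, 58.5% and 51.5% for Bak1 and, in the library labelled P2X1-KO, 42.5% for Bid, because exon lengths differ between the genes. No paired analysis was possible because each group is 1 library, and leaving out a library leaves no comparison. Depth limits Bok and Bcl2 most: 1 count equals 0.0641 CPM for WT and, in the shallower P2X1-KO library, 0.113 CPM.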
